A study of Mus musculus with 27 samples.

Results

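Hivep3, Slc36a2, Mat2b, Zfp618, Emilin1, Gja1 and Ank are 7 of the 56941 genes annotated in a whole-lung RNA sequencing study of mice given an allergen and then combustion products. They were chosen by name from their level with combustion products against saline in allergen-treated and untreated mice, as genes with small differences. That difference is therefore a description here, with no test. The tests below concern what the choice did not use, except that the allergen tests share their estimate of the spread between mice with that difference.

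The study holds 27 libraries from lungs of wild-type male C57Bl/6 mice of 7 to 8 weeks, in 4 groups. HDM_CP mice (n = 7) received 5 oropharyngeal instillations of 10 µg of house dust mite extract (HDM), which induces allergic airway inflammation, and 24 h after the last of them 200 µg of combustion products (CP), made by burning plywood, paper and plastic. HDM_SAL mice (n = 6) received HDM and then saline, PBS_CP mice (n = 7) phosphate-buffered saline (PBS) and then CP, and PBS_SAL mice (n = 7) PBS and then saline. All lungs were taken 24 h after the CP or saline. No group carries an allele or transgene in the labels, and the labels mention no pooling of mice. The p-values of edgeR set a difference between groups against the spread between these libraries.

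Library totals of the estimated counts ran from 56.3 M (M, mega) up to 84.5 M, and all 7 genes passed the filter on low counts that kept 24629 genes. Levels are given as counts per M (CPM), and as transcripts per M (TPM), which accounts for transcript length, wherever different genes are compared. Markers of alveolar type 2 cells, the surfactant-making cells of the lung, were found in every group, 7 of 7, with a summed level of 31300 to 40800 TPM over the 27 libraries. Exposure to CP was visible in Cyp1a1, a cytochrome P450 gene that the aryl hydrocarbon receptor switches on. Its level (lowest, median and highest) was 59.8, 269 and 570 CPM in HDM_CP lungs, against 16.2, 25.4 and 60.2 CPM in HDM_SAL lungs. In PBS_CP lungs it was 41.4, 253 and 1030 CPM, against 16.7, 26.6 and 33.7 CPM in PBS_SAL lungs. Averaged over HDM and PBS mice, the log2 fold change with CP was 3.43 ± 0.45 (SE) for Cyp1a1, 2.25 ± 0.33 for Cyp1b1, a second such enzyme, and 1.66 ± 0.15 for Apol7c. Their adjusted p-values were 0.00094, 0.0034 and 4.1e-07 by edgeR's quasi-likelihood test, adjusted by Benjamini-Hochberg over all genes. They were 3 of the 12 genes, 0.0487% of those tested, that passed an adjusted p of 0.05 in that averaged comparison.

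The 7 genes belong to different processes. Polycyclic compounds formed by burning bind the aryl hydrocarbon receptor, which then pairs with its partner ARNT and binds DNA sites with the core letters GCGTG. HIVEP3 (also called Schnurri-3) and ZFP618 are zinc finger proteins of the nucleus, the one known in mouse for restraining bone formation and the other for binding DNA that carries 5-hydroxymethylcytosine. MAT2B is the regulatory subunit of methionine adenosyltransferase II, the enzyme that makes S-adenosylmethionine, the methyl donor of the cell. SLC36A2 carries glycine, proline and alanine across membranes together with protons. EMILIN1 is a glycoprotein found between elastin and microfibrils in elastic fibres, GJA1 is connexin 43, which forms gap junction channels between neighbouring cells, and ANK is a membrane protein needed for export of pyrophosphate, an inhibitor of mineral deposition.

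Promoter windows from 250 bases before to 50 bases after a start given by RefSeq were taken on the GRCm38.p6 build and searched on both strands. These starts were not compared with those of the deposited annotation, which is on GRCm39. Windows were matched for 6 of the 7 genes, all but Slc36a2. The core letters GCGTG were in the windows of 5 of these 6 genes (Hivep3, Mat2b, Zfp618, Emilin1 and Gja1, not Ank), in 32.4% of the 32851 windows of the table and in 44.3% of the 18072 windows of genes tested here. The stretches around the matches are shown because CP exposure was read from Cyp1a1, a target of the factor that binds these letters. Each is written 5′ to 3′ on the strand of the gene, and capitals mark GCGTG or, where the match is on the opposite strand, its reverse complement CACGC.
Hivep3, chr4:119814558-119814626 (+): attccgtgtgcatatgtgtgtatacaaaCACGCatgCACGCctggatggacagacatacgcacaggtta
Mat2b, chr11:40692685-40692745 (-): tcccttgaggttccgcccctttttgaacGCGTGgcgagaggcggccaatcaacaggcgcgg
Zfp618, chr4:62965331-62965391 (+): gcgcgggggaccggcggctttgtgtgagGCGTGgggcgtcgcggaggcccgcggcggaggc
Emilin1, chr5:30913694-30913754 (+): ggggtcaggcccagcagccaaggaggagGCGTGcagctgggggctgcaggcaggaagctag
Gja1, chr10:56377175-56377235 (+): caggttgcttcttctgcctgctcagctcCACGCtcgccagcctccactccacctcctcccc

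The matches began 92 and 84 bases before the RefSeq start in Hivep3, and 35 bases before it in Mat2b, 208 in Zfp618, 64 in Emilin1 and 97 in Gja1. Of 3 other motifs searched, TGACNNNGC (the core of the antioxidant response element) was in 0 of the 6 windows and in 12.4% of all windows. CACGTG (the E-box of clock and MYC proteins) was likewise in 0 of 6 and in 7.15% of all. AGAACA, a hormone receptor half-site, was in the Emilin1 window alone and in 19% of all. No binding was measured, and these matches describe letters in a window.

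Before exposure is compared, the genes differed in level and in steadiness. By mean TPM over the 27 libraries, Mat2b was highest at 89.8 TPM, followed by Gja1 at 61.5, Emilin1 at 51.7, Slc36a2 at 44.6, Hivep3 at 24.2, Ank at 12.1 and Zfp618 at 1.21 TPM. Mat2b had the lowest spread between mice of 1 group of all 24629 genes, an SD of 0.037 on the log2 CPM scale. The SD was 0.078 for Hivep3, lower than in all but 4.87% of genes. It was 0.109 for Ank, 0.139 for Slc36a2, 0.16 for Emilin1, 0.177 for Gja1 and 0.242 for Zfp618. Spread is not separate from the choice, since a small CP difference ranks high by p only where the spread is low. The steadiness of Mat2b also depended on the measure. In HDM_CP lungs its SD was 0.88 at a mean of 76.8 CPM, but 3.90 at a mean of 85 TPM. In PBS_SAL lungs it was 2.455 at 86.2 CPM and 2.79 at 96.4 TPM. Zfp618 rested on the fewest counts, 212 to 543 estimated counts per library, against 1092 or more for the other genes.

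CP was given to HDM mice and to PBS mice, and the difference between CP and saline was taken in each. In HDM mice 6 of the 7 genes were higher with CP and Mat2b was lower. In PBS mice 5 were higher, and both Mat2b and Ank were lower. The word consistent, by which the genes were described, thus matches the sign of the estimates of 6 genes and goes against Ank. In PBS mice the intervals of Slc36a2 (-0.02 to 0.28) and Emilin1 (-0.02 to 0.31) include 0, so their sign there is not settled. The choice used these values, so the agreement in sign is no test. The differences were small, with fold changes of 0.11 to 0.47 in log2 size, against a median size over all genes of 0.118 in HDM mice and 0.093 in PBS mice. The CP groups and saline groups did not overlap in CPM for 3 of the 7 genes in HDM mice (Hivep3, Slc36a2 and Mat2b), where 0.158% of all genes did not overlap. In PBS mice the groups overlapped for each of the 7 genes, where 0.199% of all genes did not overlap. The choice of the genes used these values, so nothing is read from those counts.

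**Figure D1:**
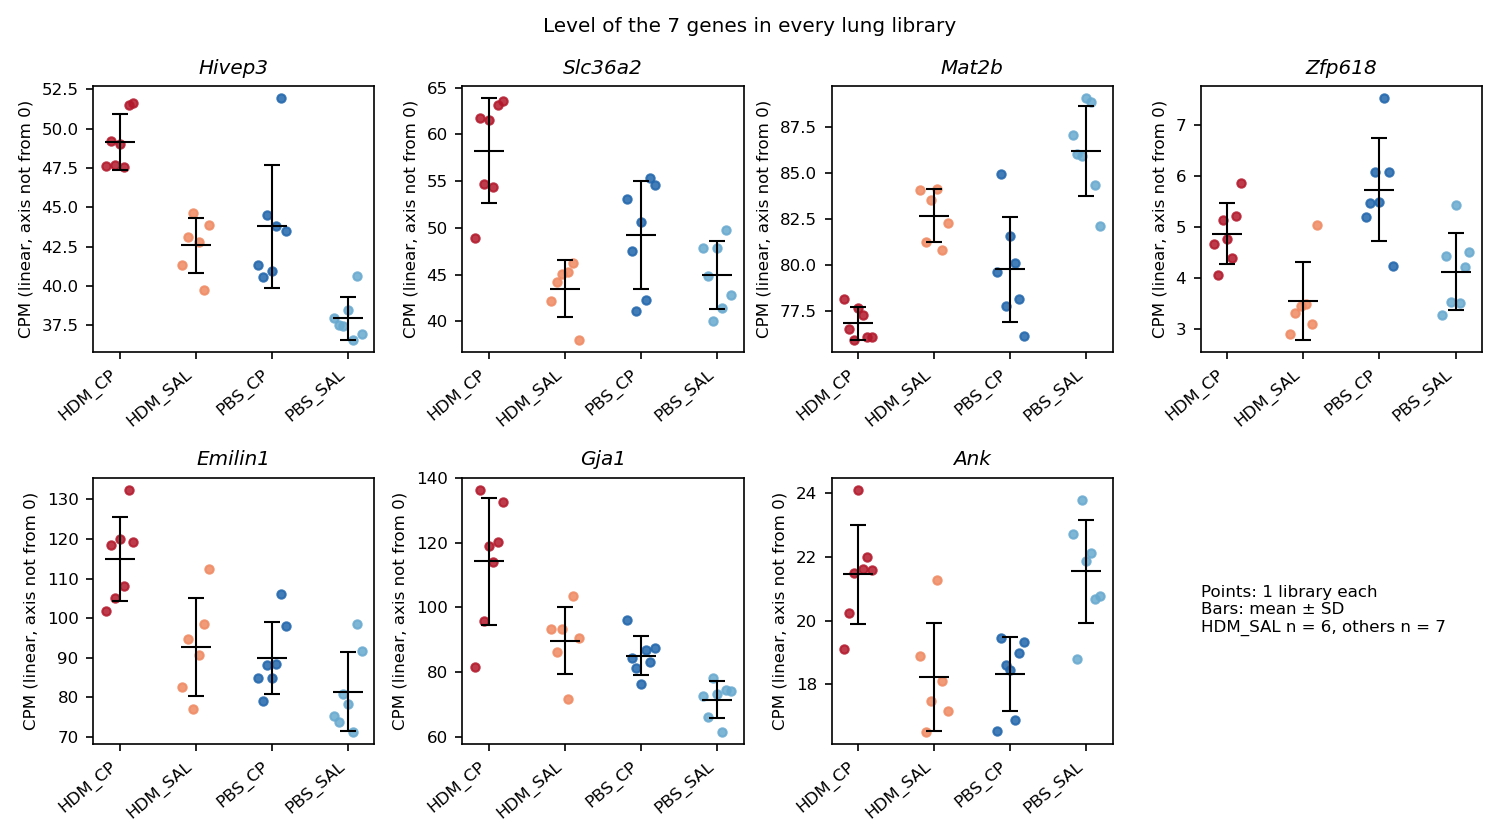
Level of each of the 7 genes in CPM (y axis, linear, not starting at 0) in every library, by group (x axis). Points are single lungs, and bars are the mean ± SD of 7 lungs (6 in HDM_SAL). Hivep3, Slc36a2 and Mat2b show no overlap between HDM_CP and HDM_SAL lungs, while Ank is high in HDM_CP and PBS_SAL lungs and low in HDM_SAL and PBS_CP lungs.

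Hivep3 (ENSMUSG00000028634.18, chr4:119590981-119995242, plus strand, GRCm39) was measured at 47.5, 49.0 and 51.6 CPM (lowest, median and highest) in HDM_CP lungs, against 39.8, 43.0 and 44.6 CPM in HDM_SAL lungs. In PBS_CP lungs its level was 40.6, 43.5 and 52.0 CPM, against 36.6, 37.5 and 40.6 CPM in PBS_SAL lungs. Every HDM_CP lung lay above all HDM_SAL lungs, and 6 of 7 PBS_CP lungs lay above all PBS_SAL lungs. The log2 fold change with CP was 0.21 ± 0.05 in both settings (SE; 95% interval 0.11 to 0.30 in each), or 15.5% higher, and the difference between the settings was 0.00 ± 0.06. This value depended on the measure. In the deposited TPM Hivep3 was 20.8, 26.0 and 29.6 TPM in HDM_CP lungs, against 22.4, 23.5 and 29.8 TPM in HDM_SAL lungs, so that the groups overlapped. On log2(TPM + 1) the fold change was 0.07 ± 0.08 in HDM mice and 0.12 ± 0.07 in PBS mice. The ratio of estimated count to TPM, which follows the transcript length assigned to a gene, varied between libraries with a coefficient of variation of 9.1% for Hivep3 and 11% for Zfp618, against 3.13% to 4.09% for the other 5 genes. Whether transcript assignment has a part in the CPM difference was not tested. A weakly expressed antisense RNA gene, Gm38632 (0.0683 TPM), overlaps Hivep3, and no source used here says that reads were counted by strand.

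**Figure D2:**
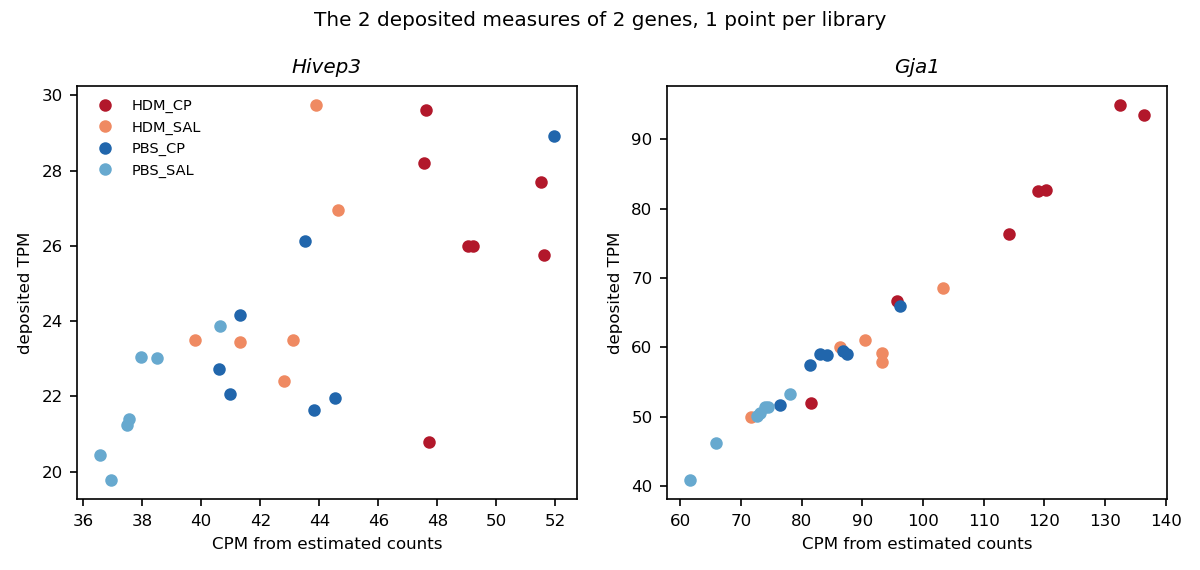
Deposited TPM (y axis) against CPM from the estimated counts (x axis) for Hivep3 and Gja1, 1 point per library, coloured by group. The points of Gja1 lie close to a line, while those of Hivep3 scatter, and HDM_CP lungs that stand above HDM_SAL lungs in CPM (47.5 and more, against 44.6 at most) lie among them in TPM.

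Zfp618 (ENSMUSG00000028358.16, chr4:62883810-63057945, plus strand), the second zinc finger gene, had the largest percent difference and the widest spread. Its level was 4.05, 4.75 and 5.86 CPM in HDM_CP lungs, against 2.89, 3.37 and 5.03 CPM in HDM_SAL lungs. PBS_CP lungs held 4.23, 5.49 and 7.51 CPM, against 3.26, 4.20 and 5.43 CPM in PBS_SAL lungs. The groups overlapped in both settings: 3 of 7 HDM_CP lungs lay above all HDM_SAL lungs, where HDM_SAL 100 alone was high, and 5 of 7 PBS_CP lungs above all PBS_SAL lungs. With CP the log2 fold change was 0.46 ± 0.14 in HDM mice (interval 0.18 to 0.74, 37.5% higher) and 0.47 ± 0.13 in PBS mice (0.20 to 0.75, 38.9% higher). In the deposited TPM 0 of 7 HDM_CP lungs lay above all HDM_SAL lungs, and 4 of 7 PBS_CP lungs above all PBS_SAL lungs. On log2(TPM + 1), where the added 1 is close to the gene's own mean of 1.21 TPM, the fold change was 0.25 ± 0.11 in HDM mice and 0.30 ± 0.10 in PBS mice, and on log2(TPM + 0.1) it was 0.46 ± 0.18 and 0.50 ± 0.18 in those settings.

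Mat2b (ENSMUSG00000042032.14, chr11:40570141-40586030, minus strand) was lower with CP. HDM_CP lungs held 75.9, 76.55 and 78.2 CPM, against 80.8, 82.9 and 84.2 CPM in HDM_SAL lungs. PBS_CP lungs held 76.2, 79.6 and 84.9 CPM, against 82.1, 86.0 and 89.1 CPM in PBS_SAL lungs. All 7 HDM_CP lungs lay below every HDM_SAL lung, and 6 of 7 PBS_CP lungs below every PBS_SAL lung. The change was -7.08% in HDM mice (log2 fold change -0.11 ± 0.03, interval -0.17 to -0.04) and -7.47% in PBS mice (-0.11 ± 0.03, interval -0.17 to -0.05). In the deposited TPM 2 of 7 HDM_CP lungs lay below every HDM_SAL lung, and the log2 fold change in HDM mice was -0.06 ± 0.04 on log2(TPM + 1).

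Slc36a2 (ENSMUSG00000020264.6, chr11:55049296-55075903, minus strand) was higher with CP mainly in HDM mice. HDM_CP lungs held 49.0, 61.5 and 63.5 CPM, against 38.0, 44.6 and 46.3 CPM in HDM_SAL lungs, with no overlap. PBS_CP lungs held 41.1, 50.6 and 55.3 CPM, against 40.01, 44.9 and 49.8 CPM in PBS_SAL lungs, and 4 of 7 PBS_CP lungs lay above the highest PBS_SAL lung. The log2 fold change was 0.42 ± 0.07 in HDM mice (0.27 to 0.57, 34% higher) and 0.13 ± 0.07 in PBS mice (-0.02 to 0.28). The effect in HDM mice minus that in PBS mice was 0.29 ± 0.10, with an interval of 0.08 to 0.50. In TPM 6 of 7 HDM_CP lungs lay above every HDM_SAL lung, and the groups overlapped.

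Emilin1 (ENSMUSG00000029163.10, chr5:31070746-31078621, plus strand), the elastic fibre gene, was measured at 101.9, 118.5 and 132.5 CPM in HDM_CP lungs, against 77.1, 92.8 and 112.3 CPM in HDM_SAL lungs. In PBS_CP lungs it was 79.0, 88.2 and 106.2 CPM, against 71.3, 78.4 and 98.5 CPM in PBS_SAL lungs. The groups overlapped in both settings, with 4 of 7 HDM_CP lungs above all HDM_SAL lungs and 1 of 7 PBS_CP lungs above all PBS_SAL lungs. Its log2 fold change was 0.31 ± 0.08 in HDM mice (0.14 to 0.49, 24.1% higher) and 0.14 ± 0.08 in PBS mice (-0.02 to 0.31). Fibroblast markers summed to 610, 847 and 1040 TPM in HDM_CP lungs, against 520, 672 and 742 TPM in HDM_SAL lungs, and to 710, 761 and 875 TPM in PBS_CP lungs, against 627, 765 and 1010 TPM in PBS_SAL lungs. The HDM_SAL lungs lowest in Emilin1, 54 and 50, also had the highest club and secretory marker sums of their group (137000 and 116000 TPM) and the lowest endothelial sums (1330 and 1740 TPM). Without HDM_SAL 54 the log2 fold change in HDM mice was 0.27, and without HDM_SAL 50 it was 0.28. The part of these markers in the Emilin1 values was not tested.

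Gja1 (ENSMUSG00000050953.11, chr10:56253426-56278609, plus strand), which encodes connexin 43, was measured at 81.5, 119 and 136.4 CPM in HDM_CP lungs, against 71.7, 91.8 and 103.3 CPM in HDM_SAL lungs. In PBS_CP lungs it was 76.5, 84.2 and 96.2 CPM, against 61.6, 73.2 and 78.2 CPM in PBS_SAL lungs. Of the CP lungs, 5 of 7 in HDM mice and 6 of 7 in PBS mice lay above every saline lung of their setting. The log2 fold change was 0.35 ± 0.09 in HDM mice (0.16 to 0.54, 27.3% higher) and 0.25 ± 0.09 in PBS mice (0.07 to 0.43, 19.1% higher). Markers of monocytes and recruited macrophages summed to 347, 519 and 731 TPM (6 of 6 markers found) in HDM_CP lungs, against 260, 368 and 417 TPM in HDM_SAL lungs. They summed to 261, 340 and 375 TPM in PBS_CP lungs, against 288, 336 and 416 TPM in PBS_SAL lungs. Fn1, at a mean of 181 TPM, was the largest part of this sum. Alveolar type 2 markers, the list with the highest correlation with Gja1 between mice (0.69), did not differ in this way. They summed to 31300, 36200 and 39400 TPM in HDM_CP lungs, against 32800, 38000 and 40800 TPM in HDM_SAL lungs. In PBS_CP lungs they summed to 35100, 38100 and 40000 TPM, against 34000, 36300 and 40500 TPM in PBS_SAL lungs. The part of either list in the Gja1 values was not tested. In bulk lung, fewer cells of a type and less RNA per cell cannot be told apart, for this and the other genes.

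Ank (ENSMUSG00000022265.8, chr15:27466763-27594995, plus strand), the pyrophosphate export gene, had opposite differences in the 2 settings. HDM_CP lungs held 19.1, 21.6 and 24.1 CPM, against 16.5, 17.8 and 21.3 CPM in HDM_SAL lungs. PBS_CP lungs held 16.6, 18.6 and 19.5 CPM, against 18.8, 21.9 and 23.8 CPM in PBS_SAL lungs. Of the HDM_CP lungs 5 of 7 lay above all HDM_SAL lungs, and of the PBS_CP lungs 4 of 7 lay below all PBS_SAL lungs. The log2 fold change was 0.23 ± 0.06 in HDM mice (0.10 to 0.36, 17.6% higher) and -0.23 ± 0.06 in PBS mice (-0.36 to -0.11, a change of -15%), and their average was 0.00 ± 0.04. The effect in HDM mice minus that in PBS mice was 0.47 ± 0.09 (0.29 to 0.65), the value it was described by. In this difference of effects no gene passed an adjusted p of 0.05 by edgeR's test. Ank ranked 1 of the 24629 genes by p, so its interval is that of a selected extreme. Its levels in HDM_CP and PBS_SAL lungs averaged 21.5 ± 1.5 and 21.6 ± 1.6 CPM, and those in HDM_SAL and PBS_CP lungs 18.2 ± 1.7 and 18.3 ± 1.2 CPM (SD). Otulin, which encodes an enzyme that removes linear ubiquitin chains, lies on the other strand and overlaps Ank by 52275 bases (chr15:27542721-27630779). Its level was 22.1, 24.5 and 27.9 CPM in HDM_CP lungs and 20.1, 22.3 and 22.9 CPM in HDM_SAL lungs. It was 18.2, 22.6 and 24.1 CPM in PBS_CP lungs and 20.3, 23.0 and 25.3 CPM in PBS_SAL lungs. For Otulin the log2 fold change was 0.17 ± 0.06 in HDM mice and -0.08 ± 0.06 in PBS mice. Since counting by strand is not stated, reads of the overlap cannot be told apart.

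**Figure D3:**
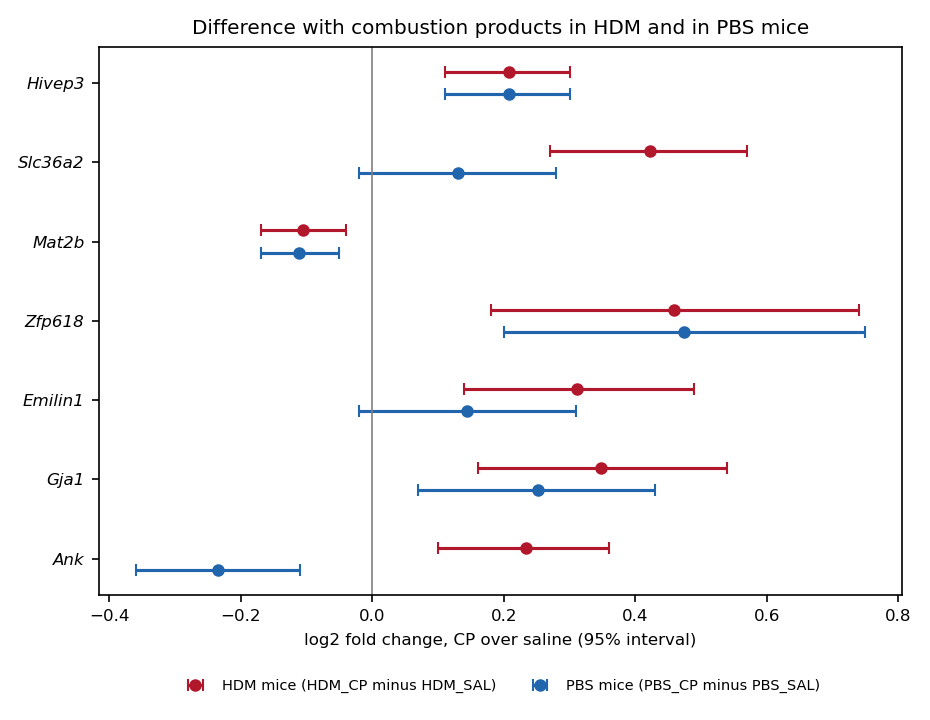
Log2 fold change of CP over saline (x axis) for the 7 genes (y axis) in HDM mice (red) and in PBS mice (blue), with 95% intervals from edgeR. Mat2b lies left of 0 in both settings, Ank lies at 0.23 in HDM mice and at -0.23 in PBS mice, and the other 5 lie right of 0, with the intervals of Slc36a2 and Emilin1 in PBS mice reaching -0.02.

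Averaged over HDM and PBS mice, the log2 fold change with CP was 0.47 ± 0.10 for Zfp618, 0.30 ± 0.06 for Gja1, 0.28 ± 0.05 for Slc36a2, 0.23 ± 0.06 for Emilin1, 0.21 ± 0.03 for Hivep3, and -0.11 ± 0.02 for Mat2b. Fold changes at least as large in size were common among all genes: 7% of genes exceeded Zfp618, 22.7% exceeded Hivep3 and 39.8% exceeded Mat2b. Of 6 neutrophil markers 1 passed edgeR's test with CP, where 0.0487% of all genes passed. It was the collagenase Mmp8 at 1.28 ± 0.25 (adjusted p = 0.046). All 6 neutrophil markers were positive, with a median log2 fold change of 0.48. Those markers summed to 157, 285 and 645 TPM in HDM_CP lungs, against 113, 168 and 208 TPM in HDM_SAL lungs, and to 133, 156 and 282 TPM in PBS_CP lungs, against 102, 163 and 284 TPM in PBS_SAL lungs. Monocyte and recruited macrophage markers were positive with CP in 6 of 6 (median 0.29), and fibroblast markers in 4 of 6 (median 0.11). Of the alveolar type 1 and the ciliated markers 0 of 6 each were positive. None of the markers in these 4 lists passed. The part of cell type markers in the values of the 7 genes was not tested.

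HDM against PBS, averaged over CP and saline mice, was not used in choosing the genes. Its estimate is nearly uncorrelated with those of the averaged CP difference and of the difference of effects (-0.04 for each). However, these comparisons share the same estimate of the spread between mice. In the averaged CP comparison Hivep3 ranked 4 of 24629 genes by p, Slc36a2 8, Mat2b 10, Zfp618 15, Gja1 19, Emilin1 105 and Ank 24586. Small differences rank high only where the spread is low, so the HDM tests are not free of the choice. Gja1, Emilin1 and Hivep3 were higher in HDM lungs. Over all genes 3986 of 24629, 16.2%, passed the test, 2266 higher (9.2%) and 1720 lower (6.98%), and 3 of the 7 genes passed, all 3 higher. Gja1 averaged 103 CPM in HDM lungs and 78.3 CPM in PBS lungs, a log2 fold change of 0.38 ± 0.06 (interval 0.25 to 0.51, 29.8% higher, adjusted p = 0.00013). Of the 13 HDM lungs 6 lay above all 14 PBS lungs. Emilin1 averaged 105 CPM in HDM lungs and 85.7 CPM in PBS lungs, and its log2 fold change was 0.27 ± 0.06 (0.15 to 0.39, 20.7% higher, adjusted p = 0.0017). Again 6 of 13 HDM lungs lay above all PBS lungs. Hivep3 averaged 46.1 CPM in HDM lungs and 40.9 CPM in PBS lungs, and its log2 fold change was 0.17 ± 0.03 (0.10 to 0.23, 12.2% higher, adjusted p = 0.00069), but no HDM lung lay above the highest PBS lung, PBS_CP 101. On unfiltered log2(TPM + 1) Hivep3 did not pass (0.15, adjusted p = 0.082). All adjusted p-values are from edgeR's quasi-likelihood test, adjusted over the 24629 genes.

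The other 4 genes did not pass that test. Mat2b averaged 79.5 CPM in HDM lungs and 83 CPM in PBS lungs (log2 fold change -0.06 ± 0.02, interval -0.10 to -0.01, adjusted p = 0.065). It passed under 9 of 39 alternatives, among them DESeq2 (-0.06, adjusted p = 0.013), a fit without the 3 libraries under 60 M (-0.08, adjusted p = 0.017), and fits without PBS_SAL 105 or PBS_CP 102. Zfp618 averaged 4.25 CPM in HDM lungs and 4.92 CPM in PBS lungs (-0.23 ± 0.10, interval -0.42 to -0.03, adjusted p = 0.11). It passed under 1 of 39 alternatives, without HDM_SAL 100, at -0.30 (adjusted p = 0.021). In the alternatives that did not leave out a single library it ran from -0.25 to -0.11. Slc36a2 had 51.5 CPM in HDM lungs and 47.1 CPM in PBS lungs (0.10 ± 0.05, interval -0.01 to 0.20, adjusted p = 0.21). Ank had 20 CPM in HDM lungs and 19.9 CPM in PBS lungs (-0.01 ± 0.04, interval -0.10 to 0.08, adjusted p = 0.95).

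**Figure D4:**
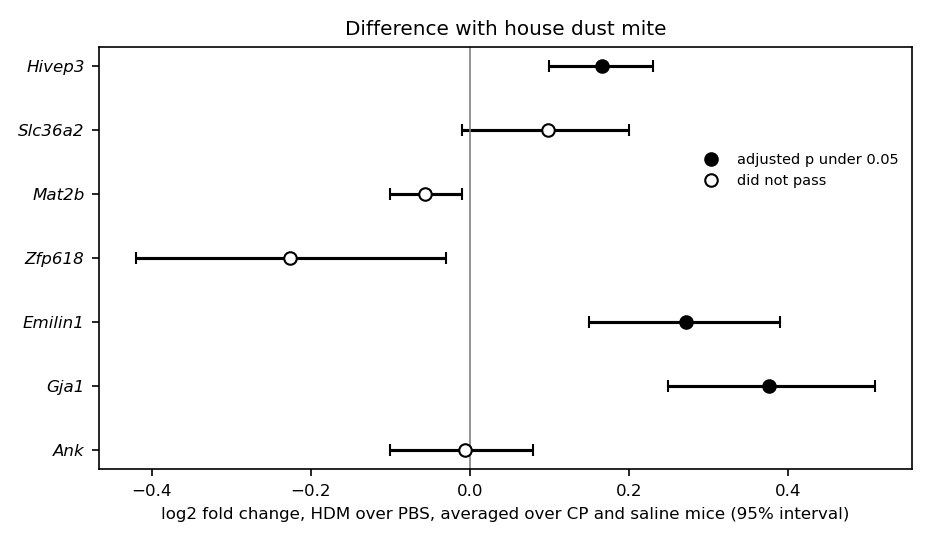
Log2 fold change of HDM over PBS averaged over CP and saline mice (x axis) for the 7 genes (y axis), with 95% intervals. Filled points passed an adjusted p of 0.05 over all genes; they are Gja1 at 0.38, Emilin1 at 0.27 and Hivep3 at 0.17.

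Split by the later exposure, the HDM difference shares libraries with the CP differences above and is given as values only. In CP mice (HDM_CP over PBS_CP) it was 0.42 ± 0.09 for Gja1, 0.36 ± 0.08 for Emilin1, 0.24 ± 0.07 for Slc36a2, 0.23 ± 0.06 for Ank, 0.17 ± 0.05 for Hivep3, -0.05 ± 0.03 for Mat2b and -0.23 ± 0.13 for Zfp618. In saline mice (HDM_SAL over PBS_SAL) it was 0.33 ± 0.09 for Gja1, 0.19 ± 0.08 for Emilin1, 0.17 ± 0.05 for Hivep3, -0.05 ± 0.07 for Slc36a2, -0.06 ± 0.03 for Mat2b, -0.22 ± 0.14 for Zfp618 and -0.24 ± 0.06 for Ank. The sign was the same in both for 5 of the genes and opposite for Slc36a2 and Ank. For Slc36a2 the interval in saline mice was -0.20 to 0.10, so its sign there is not settled. The gap between the HDM differences of a gene equals the gap between its CP differences.

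Some cell type markers also differed with HDM, where 9.2% of all genes were higher and 6.98% lower. Of 6 markers of monocytes and recruited macrophages 4 were higher in HDM lungs (Ccr2, Cd68, Fn1 and Trem2) and none was lower. Alveolar macrophage markers summed to 1990, 3740 and 6120 TPM in HDM_CP lungs and 1750, 2080 and 3620 TPM in HDM_SAL lungs. They summed to 647, 859 and 1020 TPM in PBS_CP lungs and 610, 954 and 1080 TPM in PBS_SAL lungs. HDM lungs did not overlap PBS lungs in this sum, most of which is Chil3 (mean 1470 TPM, log2 fold change 2.58 ± 0.21). Of the 7 markers 3 were higher and 1 was lower in HDM lungs, and their median log2 fold change was -0.07. Of the 7 alveolar type 2 markers, the list with the highest correlation with Gja1 between mice (0.69), 3 were higher (Sftpa1 at 0.56 ± 0.06, Sftpd at 0.81 ± 0.09 and Lamp3 at 0.23 ± 0.06) and 1 was lower (Sftpb at -0.19 ± 0.05). Of 6 alveolar type 1 markers 3 were lower, and of 6 endothelial markers 1 was higher and 1 was lower. Of 6 smooth muscle and pericyte markers 2 were higher and 1 was lower, and of 6 fibroblast markers 3 were lower. Of 6 club and secretory markers 2 were higher and 1 was lower, of 6 neutrophil markers 2 were higher, and of 6 ciliated markers 1 was lower. Heart muscle had 1 of 6 higher, and fat 1 of 4 higher and 1 lower. No marker of T cells, B and plasma cells, mesothelial cells or red blood cells passed. The part of these markers in the Gja1, Emilin1 and Hivep3 results was not tested.

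Genes that work with each of the 7 were followed in 7 lists, which hold 88 other genes that passed the filter. With CP, averaged over HDM and PBS mice, 0 of these 88 passed edgeR's test, 15 had an unadjusted p under 0.05 (2178 of all 24629 genes did), and their median log2 fold change was 0.06 (all genes, 0.00). DESeq2, and edgeR without the 3 libraries under 60 M, each called 1 of them, in the elastic fibre list. Among the other 22 elastic fibre genes 15 were positive, and fibrillin Fbn1 had the smallest p (0.34 ± 0.09, adjusted p = 0.16). Among 13 other connexin and pannexin genes 9 were positive with a median of 0.14, and Gja5, connexin 40, had 0.20 ± 0.07 (adjusted p = 0.32). Among 12 other amino acid transporter genes 10 were positive with a median of 0.07, and Slc7a5, a carrier of large neutral amino acids, had 0.20 ± 0.10 (adjusted p = 0.54).

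For the remaining lists the median was between 0.02 and 0.07. Alpl, the phosphatase that breaks down pyrophosphate, had a log2 fold change with CP of 0.33 ± 0.10 (adjusted p = 0.26) among 12 other pyrophosphate and phosphate genes, of which 10 were positive. Gnmt, which consumes S-adenosylmethionine, had -0.44 ± 0.15 (adjusted p = 0.33) among 17 other genes in the methionine cycle list. Uhrf1, which recognises hemimethylated DNA, had 0.48 ± 0.17 (adjusted p = 0.33) among 10 other genes of DNA methylation and 5-hydroxymethylcytosine. Hivep1, a paralog of Hivep3, had 0.06 ± 0.07 (adjusted p = 0.88), and the other paralog, Hivep2, -0.02 ± 0.06.

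With HDM, 27 of the 88 genes passed, 20 higher and 7 lower, or 30.7% beside 16.2% of all genes, and the median log2 fold change was 0.03 (all genes, 0.01). The lists were chosen with earlier results of these data known, and these shares were not matched for expression level. The gap between the shares is therefore no test of the lists. Of the elastic fibre genes 5 were higher and 2 lower: elastin, Eln, was at 1.19 ± 0.26 (adjusted p = 0.0024) and the elastin crosslinking enzyme Lox at 0.48 ± 0.13 (0.014), while Ltbp4 was at -0.50 ± 0.09 (0.00014) and Fbln2 at -0.37 ± 0.08 (0.0016). Of the connexin and pannexin genes 2 were higher, Gjb1 (connexin 32) at 1.09 ± 0.15 (adjusted p = 1.5e-05) and Panx1 at 0.31 ± 0.07 (0.0045). Of the pyrophosphate and phosphate genes 3 were higher and none lower. They were Abcc6, a transporter tied to pyrophosphate release, at 1.91 ± 0.24 (adjusted p = 4.8e-06), Alpl at 0.49 ± 0.10 (0.0012) and Mgp, an inhibitor of mineral deposition, at 0.26 ± 0.08 (0.024). Abcc6 was weakly expressed, with a mean of 0.916 TPM.

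Of the amino acid transporter genes 6 were higher and 2 lower with HDM. The proline carrier Slc6a20a was at 1.57 ± 0.18 (adjusted p = 1.3e-06), its close paralog Slc6a20b, with which it may share reads, at 1.38 ± 0.30 (0.0019), the glutamine carrier Slc38a1 at 0.49 ± 0.08 (0.00016), and the cationic amino acid exchanger Slc7a7 at 0.23 ± 0.05 (0.0018). Slc6a20b was weakly expressed, with a mean of 0.256 TPM. Of the genes in the methionine cycle list 2 were higher and 3 lower. Ahcyl2, a paralog of the cycle gene Ahcy rather than a gene of the cycle, was at 0.38 ± 0.07 (adjusted p = 0.00025). Shmt1, of folate metabolism, was at 0.34 ± 0.08 (0.0065), Mthfd1 at -0.17 ± 0.05 (0.028) and Gnmt at -0.46 ± 0.15 (0.041). That count of 5 was 2 or 3 when any of 11 single libraries was left out. Of the DNA methylation genes 2 were higher, Uhrf1 at 0.98 ± 0.17 (adjusted p = 0.00016) and the 5-methylcytosine oxidase Tet2 at 0.13 ± 0.04 (0.034), a count that was 1 when any of 11 single libraries was left out. Neither Hivep1 nor Hivep2 passed, with Hivep2 at -0.14 ± 0.06 (adjusted p = 0.11), though 1 of them passed without HDM_CP 66 and without the 3 libraries under 60 M.

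How the genes varied between mice of 1 group was described by correlating their deviations from group means on the log2 CPM scale over the 27 libraries. These points share a library and its scaling, and no test is given. The 21 pairs of the 7 genes had a median Pearson r of 0.04, 14 were positive, and 2 exceeded 0.5 in size. Mat2b and Emilin1 had r = -0.64 and were negatively related within each group, at -0.44 in HDM_CP, -0.59 in HDM_SAL, -0.77 in PBS_CP and -0.77 in PBS_SAL lungs. Hivep3 and Emilin1 had r = 0.53, with 0.86 in HDM_CP, 0.88 in PBS_CP and 0.62 in PBS_SAL lungs but -0.12 in HDM_SAL lungs. The median r over the 21 pairs was 0.29 in HDM_CP and -0.16 in HDM_SAL lungs, and -0.02 in PBS_CP and 0.17 in PBS_SAL lungs. These medians keep the sign of r and include pairs with Mat2b, which was lower with CP. In HDM_CP lungs r ran from -0.57 to 0.91, highest for Slc36a2 with Gja1 (0.91) and with Emilin1 (0.90). In HDM_SAL, PBS_CP and PBS_SAL lungs Slc36a2 had -0.04, 0.23 and 0.17 with Gja1. With Emilin1 it had -0.54, 0.46 and 0.31 in those groups.

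**Figure D5:**
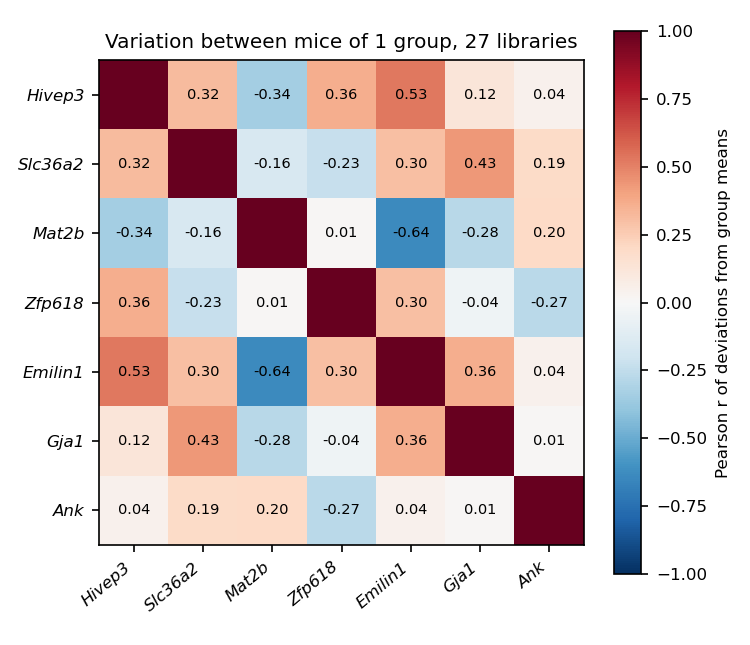
Pearson r of the deviations from group means of log2 CPM over 27 libraries, for each pair of the 7 genes (both axes). Red is positive and blue negative; Mat2b with Emilin1 (-0.64) and Hivep3 with Emilin1 (0.53) have the largest sizes, and most other cells are pale.

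The genes most alike in these deviations differed from member to member, out of 14851 genes whose mean log2 CPM reached 1. Emilin1 varied most like Loxl2 (r = 0.88), which crosslinks collagen and elastin, Plod1 (0.84), a collagen lysyl hydroxylase, and Tram2 (0.82). Gja1 varied most like Pgm1 (0.83), a phosphoglucomutase, Npc2 (0.83), a lysosomal cholesterol carrier, and Ptgs1 (0.82), which encodes cyclooxygenase 1. Slc36a2 varied most like Mcm10 (0.80), a DNA replication factor, Kifc5b (0.80), a kinesin, and Spc25 (0.79), a kinetochore protein, all of dividing cells. Mat2b was most like Slc25a36 (0.78), a mitochondrial nucleotide carrier, Gm38393 (0.73) and the pseudogene Rpl9-ps4 (0.68). For Zfp618 the values were 0.71 with Zfp518b and 0.68 with the mitochondrial carriers Slc25a42 and Slc25a51, for Ank 0.70 with the proprotein convertase Pcsk7 and 0.63 with Trio, and for Hivep3 0.65 with Cd109, 0.64 with Atp9b and 0.63 with B3gnt9.

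Against the summed deviations of cell type markers, Gja1 had r = 0.69 with alveolar type 2 markers and 0.59 with those of monocytes and recruited macrophages. Emilin1 had 0.60 with endothelial, 0.55 with fibroblast and 0.52 with smooth muscle and pericyte markers, and -0.48 with ciliated cell markers. Ank had -0.60 with mesothelial markers, and Mat2b had -0.48 with smooth muscle and pericyte markers. No marker list reached 0.50 in size for Hivep3, Slc36a2 or Zfp618.

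Whether a gene followed the strength of the Cyp1a1 response was asked among the 14 CP lungs, with group means removed and permutation within groups (100000 resamples, two-sided, 7 relations). No relation passed after Benjamini-Hochberg adjustment. The closest was Mat2b, with Pearson r = -0.65 (permutation p = 0.023, adjusted p = 0.16) and Spearman rho = -0.53 (permutation p = 0.075, adjusted p = 0.35). Its r was -0.41 in HDM_CP and -0.76 in PBS_CP lungs, and -0.41 without the 2 lungs farthest from the median of Cyp1a1. On log2(TPM + 1) its r was -0.34 (permutation p = 0.25, adjusted p = 0.47). Emilin1 had r = 0.52 (permutation p = 0.071, adjusted p = 0.19) and rho = 0.45 (permutation p = 0.12, adjusted p = 0.35), and r stayed at 0.52 without those 2 lungs. It was 0.29 in HDM_CP and 0.69 in PBS_CP lungs. Gja1 had r = 0.45 (permutation p = 0.082, adjusted p = 0.19) and rho = 0.40 (permutation p = 0.15, adjusted p = 0.35). It had 0.63 without those 2 lungs (adjusted p = 0.15), and 0.59 in HDM_CP and 0.40 in PBS_CP lungs. For the other 4 genes r lay between -0.18 and 0.37.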

How the data were processed

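Whole lungs of 27 mice were profiled by RNA sequencing after polyA selection; per the labels' protocols, 20 M (M, mega) pairs of 150-base reads were planned for each. The submitters' processing notes name the GRCm39 build, StringTie 2 and STAR, version not given in the sources used here, and the tables' names add GENCODE M33. Estimated counts, as deposited, are whole numbers that sum to about 4 times the planned pairs, so they were read as estimates. TPM values were scaled by the authors within each library and carry no depth. A symbol is lacking for 310 genes, with 0.0602% of the estimated counts.

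Rounded counts were tested with edgeR 4.0.16 under R 4.3.3 (filterByExpr with a minimum count of 10, trimmed mean of M values, 1 model of the 4 group means, robust quasi-likelihood test, two-sided, Benjamini-Hochberg over all genes, threshold 0.05). CPM values are scaled by the same factors, and log2 CPM used a prior count of 2. Alternatives were other scaling factors and filters, DESeq2 1.42.0, limma 3.58.1 with voom or on log2(TPM + 1) and log2(TPM + 0.1), counts divided by 4, a block for the 3 runs of library numbers (45 to 64, 66 to 81 and 96 to 105), only the groups compared, no libraries under 60 M, and leaving out each library.

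The members and lists were chosen with earlier results of these data known. The genes named are the 7, the exposure genes Cyp1a1, Cyp1b1 and Apol7c, from each list the called genes (the 4 with the smallest p where there were more) or else the gene with the smallest p, and the 3 genes most alike each member (1 of them, for Ank, is not reported here). Hivep2 with CP, Otulin, Gm38632, and the markers of cell types named fall outside that rule and were chosen after their values were seen. Tests of the HDM difference within CP mice and within saline mice were planned, but no p is given since they share libraries with the CP differences. Positions are those of the deposited tables. The promoter table is on GRCm38.p6 and is used for sequence alone.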

Additional observations from a re-analysis of the deposited data

Results flagged for a closer look

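In the 28 sets of 1 gene in 1 group, 2 libraries lay far from the others of their group, by the gap to the nearest library over the range of the group; chance gives about 1 in 20. Hivep3 was at 52 CPM in PBS_CP 101, where the next PBS_CP lung had 44.5 CPM. Zfp618 was at 5.03 CPM in HDM_SAL 100, where the next HDM_SAL lung had 3.48 CPM. The CP effect on Ank differed between HDM and PBS mice by 0.47 on the log2 scale: every HDM_CP lung lay above the mean of HDM_SAL lungs, and every PBS_CP lung below the mean of PBS_SAL lungs. This difference was part of how Ank was chosen, so it is no test of Ank. Ank ranked 1 of the 24629 genes in it by p, and no gene passed an adjusted p of 0.05 by edgeR's test.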

How the results depend on the processing

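The cause of the changes below was not tested. With CP, Hivep3 moved on log2(TPM + 1), log2(TPM + 0.1) and unfiltered log2(TPM + 1) to 0.07, 0.08 and 0.07 in HDM mice, 0.12, 0.13 and 0.12 in PBS mice and 0.1 in each on average. In these 3 fits Mat2b was at -0.06 with CP in HDM mice and -0.12 with HDM in saline mice. The 12 genes called with CP on average became 174 with DESeq2, 30 with voom quality weights, 5, 5 and 4 in the TPM fits, 25 with the runs as a block, 33 without libraries under 60 M and 4 to 102 when each library was left out, with 102 without HDM_CP 45, 56 without HDM_CP 66 and 4 without HDM_SAL 50. For HDM on average, Mat2b passed at -0.06 (upper quartile, DESeq2, voom), -0.09 (TPM fits) and -0.08 (without libraries under 60 M), and ran from -0.07 to -0.05 when each library was left out. Hivep3 did not pass at 0.15 (unfiltered TPM). Zfp618 ran from -0.3 to -0.19 when each library was left out and from -0.25 to -0.11 in the other fits. Ank ran from -0.03 to 0.01 when each library was left out, and it was 0 with no filter, voom or the runs as a block. Emilin1 (0.23 to 0.33) and Gja1 (0.33 to 0.41) passed in 39 of 39 alternatives. Against Cyp1a1, r turned to 0.1 for Zfp618 on log2(TPM + 1) and to 0.26 for Ank without the 2 farthest lungs. Of the lists with HDM, the methionine cycle count of 5 was 3 with no filter, 2 without HDM_SAL 99 or HDM_CP 49, and 3 without PBS_SAL 61, 64, 80 or 81, PBS_CP 101, HDM_SAL 54 or 72, or HDM_CP 67 or 98. The DNA methylation count of 2 was 1 in the TPM fits, without libraries under 60 M, and without PBS_SAL 80, 81 or 105, PBS_CP 57, 76, 101 or 102, HDM_SAL 72 or 99, or HDM_CP 49 or 98. The transporter count of 8 was 5 in the filtered TPM fits, the elastic fibre count of 7 was 3 with unfiltered TPM, and the connexin count of 2 was 1 in the TPM fits and 4 without libraries under 60 M. The setting with only the groups compared gives no average. No paired analysis was possible because each library number in the labels belongs to 1 library and the groups share none. Depth limits Zfp618 most, which has the fewest counts.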

Other observations

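Library HDM_CP 45 was the lowest of its group in Slc36a2, Emilin1, Gja1 and Ank and the highest in Mat2b. Its Cyp1a1 level was 69.9 CPM and its Apol7c level 7.03 CPM, and its monocyte and recruited macrophage markers summed to 347 TPM, the lowest of the HDM_CP lungs. Its club and secretory markers summed to 116000 TPM and its ciliated markers to 942 TPM, the highest of its group, and its alveolar type 2 markers to 31300 TPM, the lowest of the 27 lungs. Without it, a choice made after seeing the data, the median r over the 21 pairs of the 7 genes among HDM_CP lungs was 0.21, against 0.29 with it.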
